A study of Mus musculus with 10 samples.

Results

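A group of 8 genes of small GTPase signalling was followed in mouse platelet RNA, namely the Ras genes Nras, Hras, Rras and Rras2, the Rap genes Rap1a, Rap1b and Rap2b, and Rasgrp2, which encodes the exchange factor CalDAG-GEFI. They were chosen by gene symbol, and all 8 had a row among the 53819 gene rows of each library. Platelet RNA from 5 libraries of P7 mice, read here as postnatal day 7, was compared with that from 5 libraries of adult mice. The P7 libraries carry the letters A, B, C, E and I and the adult ones A, B, C, G and H. Age is the only factor that separates the groups in the labels. The sources used here give neither strain, sex, genotype nor treatment, and do not say whether a library came from 1 animal or from several. The p-values therefore set the age difference only against the spread of these samples within groups, and that spread may be technical.

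Ras and Rap proteins are switches that are active when bound to GTP. Exchange factors load them with GTP and GTPase-activating proteins turn them off. In platelets a rise in cytosolic calcium activates CalDAG-GEFI, which loads RAP1, and GTP-bound RAP1 promotes the talin- and kindlin-dependent activation of the fibrinogen receptor, integrin alphaIIb-beta3. RAP1B is known as the main Ras-family GTPase of platelets, and its relative RAP1A carries out overlapping functions. NRAS, HRAS and the R-Ras proteins belong to the Ras branch, whose best known effectors are the RAF kinases at the top of the MEK and ERK cascade.

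RAP1A and RAP1B are close relatives, so the nucleotide sequence that lets reads tell their genes apart is shown first. These are the first 75 bases of the coding sequences in the GENCODE M21 transcripts, written 5′ to 3′ from the start codon, with bases that differ between the genes in capitals.
Rap1a: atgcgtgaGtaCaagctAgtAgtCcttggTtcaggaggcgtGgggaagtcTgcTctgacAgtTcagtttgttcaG
Rap1b: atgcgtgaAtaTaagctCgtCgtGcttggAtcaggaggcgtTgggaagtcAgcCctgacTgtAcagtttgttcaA
A window of this size is as long as 1 read, and 12 of its bases differed. Over the whole coding sequence of 552 nt, 101 bases differed (81.7% identity), and the longest stretch without a difference was 20 nt. No 75-mer of a Rap1b, Nras, Hras, Rras or Rras2 transcript occurred in a transcript of another gene. Of the Rap1a 75-mers 4.48% were also found in Gm9392, a gene model that held 5 to 18 counts per library.

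The start of Nras, the member with the largest fold change among those called, is shown with its GC-box letters. These are the 98 bases just before the RefSeq start site, written 5′ to 3′ (GRCm38.p6, chr3:103058187-103058284, plus strand), with matches to GGGCGG in capitals.
Nras upstream: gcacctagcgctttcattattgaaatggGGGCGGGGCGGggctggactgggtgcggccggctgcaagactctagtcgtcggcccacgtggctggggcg
This stretch held 2 overlapping matches to GGGCGG, searched on both strands. Of 32851 RefSeq promoter windows of 250 nt before a start site, 32.7% held this motif. Such windows of Rap1b held 4 matches, those of the 2 Rasgrp2 start sites 5 and 2, and those of the 3 Rras start sites 0. The windows of Hras and Rap2b held 3 each and that of Rras2 held 2, while Rap1a had no window. Annotated exons overlap the windows of Nras, Rap1b, Hras, Rap2b and Rasgrp2 and a window of Rras. The GATA1 letters AGATAA had 1 match in the Nras window, and 9.99% of all windows held them. The RUNX letters TGTGGT had 1 match in the Hras window, and 14.0% of all windows held them. The ETS letters CCGGAAG had 1 match at a Rasgrp2 start, and 6.91% of all windows held them. These matches describe sequence and were not tested as binding sites.

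Levels are counts per 1e6 counts scaled by trimmed mean of M-values (TMM) factors, written CPM, and fold changes are P7 over adult from edgeR's quasi-likelihood test, with p-values adjusted by Benjamini-Hochberg over the 8198 genes that passed the filter on low counts. All 8 members passed that filter. An adjusted p under 0.05 counts as a call. Of the 8 members, 2 rose at P7 (Nras and Rras), 2 fell (Rap1a and Rap1b) and 4 did not pass the test (Hras, Rras2, Rap2b and Rasgrp2). Over all genes tested 27.7% were called, 13.8% higher and 13.9% lower, and with 8 genes nothing particular to the set is read from the count of 4. The 4 called members were also those whose groups did not overlap, as was the case for 19.8% of all genes tested. In bulk RNA, fewer cells of a kind and less RNA per cell cannot be told apart.

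**Figure D1:**
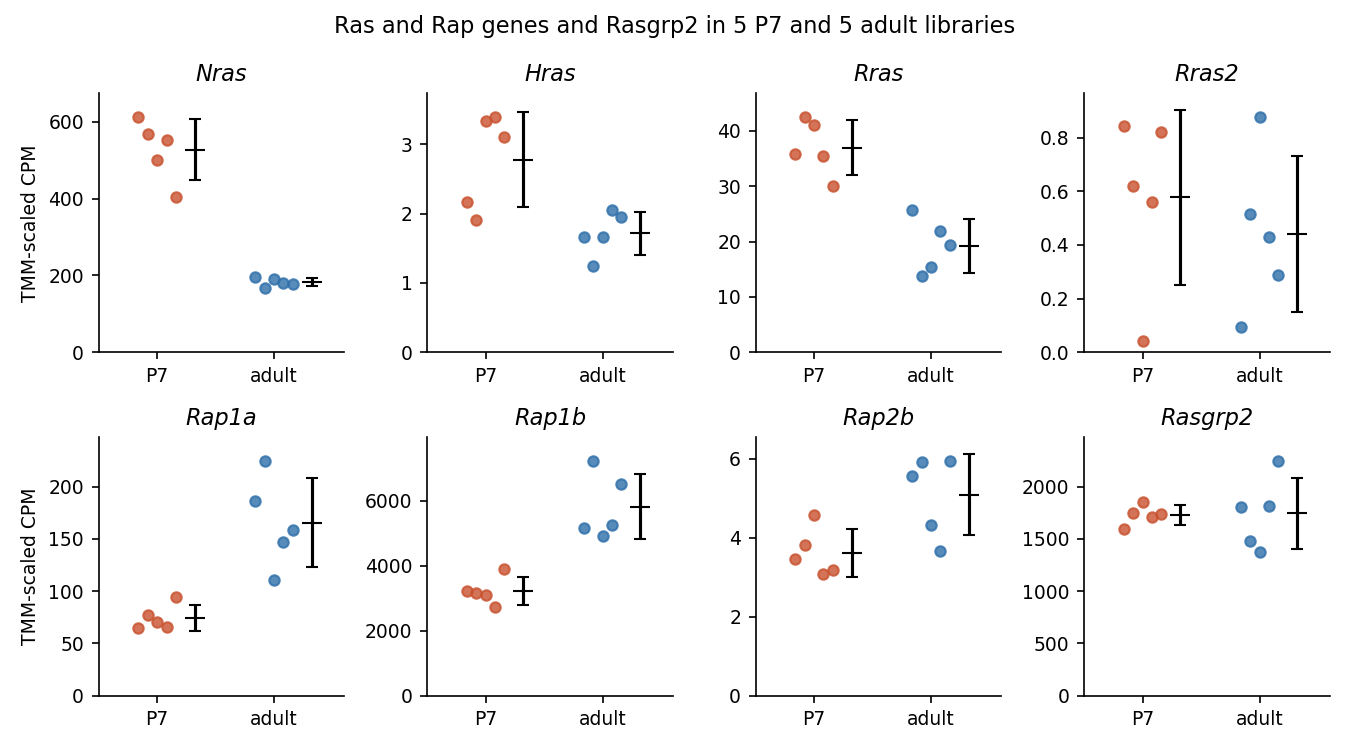
TMM-scaled CPM (y axes from 0, a separate scale per gene) of the 8 genes in the P7 and adult libraries, 1 point per library, with mean and SD beside them (n = 5 each). Nras and Rras were higher in each P7 library than in any adult library, Rap1a and Rap1b were lower, and the groups of Hras, Rras2, Rap2b and Rasgrp2 overlapped.

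Among the Ras genes, Nras stood at 613, 569, 499.7, 554 and 404 CPM in P7 A, B, C, E and I. In adult A, B, C, G and H it held 196, 168, 192, 181 and 177 CPM. The lowest P7 library, I, was still far above the highest adult library, A, and the adult libraries lay close together. Means were 528 ± 80.2 and 183 ± 11.3 CPM (SD, n = 5 each), a 2.89-fold increase at P7 with a log2 fold change of 1.53 ± 0.14 (SE, edgeR adjusted p = 8.77e-06). A change at least this large in either direction was seen for 10.04% of all genes tested.

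Rras encodes R-Ras, a relative of the classical Ras proteins known for effects on integrin-dependent adhesion. Its levels at P7 were 35.8, 42.5, 41.1, 35.5 and 30.0 CPM in libraries A, B, C, E and I. Adult A, B, C, G and H had 25.7, 13.7, 15.4, 21.9 and 19.3 CPM. P7 I was the lowest of its group and adult A the highest of the other, with a narrow gap between them. Rras rose 1.93-fold, from 19.2 ± 4.84 to 37.0 ± 4.99 CPM (SD, n = 5 each), with a log2 fold change of 0.95 ± 0.20 (SE, edgeR adjusted p = 0.00252), and 25.4% of all genes tested changed at least as much. The Rras transcript is GC-rich, at 58.1%, and with the trend of fold change with GC content removed the log2 fold change was 0.53 ± 0.19 (SE) and did not pass (edgeR adjusted p = 0.0537).

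Hras, which encodes H-Ras, was present at low levels. P7 A and B had 2.17 and 1.91 CPM, and P7 C, E and I had 3.33, 3.40 and 3.10 CPM. Adult libraries A, B, C, G and H stood at 1.67, 1.25, 1.66, 2.05 and 1.95 CPM. P7 B lay below the highest adult libraries, G and H, so the groups overlapped. The log2 fold change of Hras was 0.70 ± 0.28 (SE, edgeR adjusted p = 0.0797). Counts of 29 to 85 per library stood behind these values.

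Rras2, which encodes the R-Ras relative TC21, was near the limit of detection, with 1 to 21 counts at P7 and 2 to 18 in adults. Its level ran from 0.0401 CPM in P7 C to 0.844 CPM in P7 A, and from 0.0954 CPM in adult A to 0.877 CPM in adult C. The highest and the lowest value of each group overlapped those of the other group. Its log2 fold change of 0.38 ± 0.67 (SE, edgeR adjusted p = 0.71) leaves a difference of either sign possible at this depth.

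Rap1b was by far the most abundant GTPase gene of the set. It held 3208, 3170.2, 3103, 2736 and 3893 CPM in the P7 libraries and 5177, 7240.1, 4916, 5264 and 6517 CPM in the adult ones, each in the order of the letters. P7 I was the highest of the P7 libraries and adult C the lowest of the adult ones, and the groups did not overlap. Means were 3222 ± 419 and 5823 ± 1005 CPM (SD, n = 5 each). Adults thus had 1.81-fold more, with a log2 fold change at P7 of -0.85 ± 0.14 (SE, edgeR adjusted p = 0.000497). Of all genes tested 29.9% changed at least as much as Rap1b. As a share of all counts Rap1b took 0.328 ± 0.0292% of each P7 library and 0.569 ± 0.102% of each adult one (SD, n = 5 each). The Rap1b transcript has a GC content of 39.9%, and with the GC trend removed its log2 fold change was smaller, at -0.55 ± 0.13 (SE), and still passed (edgeR adjusted p = 0.00647).

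Rap1a moved in the same direction at a much lower level. P7 A, B, C, E and I had 64.4, 76.8, 70.3, 65.4 and 94.4 CPM, and adult A, B, C, G and H had 187, 225, 111, 147 and 158 CPM. Adult C was the lowest adult library and lay above P7 I, the highest P7 library. Rap1a was 2.23-fold higher in adults, at 166 ± 42.9 CPM against 74.3 ± 12.3 CPM (SD, n = 5 each), with a log2 fold change at P7 of -1.16 ± 0.19 (SE, edgeR adjusted p = 0.000504). A change at least this large was seen for 18.3% of all genes tested. Removing the GC trend gave -0.81 ± 0.17 (SE), which also passed (edgeR adjusted p = 0.00244).

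Rap2b encodes a Rap protein of the second subgroup, whose effectors differ from those of RAP1. It stood at 3.45, 3.82, 4.57, 3.08 and 3.19 CPM at P7 and at 5.58, 5.92, 4.33, 3.68 and 5.96 CPM in adults, in the order of the letters. P7 C lay above adult C and G, so the groups overlapped. The log2 fold change of Rap2b was -0.49 ± 0.23 (SE, edgeR adjusted p = 0.13). Of its annotated exon bases 54.5% overlap B430305J03Rik on the other strand, whose row held 0 counts in all 10 libraries. Of the same bases 3.83% overlap Gm37696, also on the other strand, whose row held 1 to 14 counts per library, where Rap2b held 70 to 138. The library kit as described does not mark strand, so reads of overlapping genes cannot be told apart. How reads on shared bases were counted is not stated. If they were left out, the level of Rap2b is too low, which was not tested.

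Rasgrp2, the exchange factor upstream of RAP1, had overlapping levels in both groups. It was at 1596, 1751, 1849, 1712 and 1739.9 CPM in the P7 libraries and at 1806, 1479.6, 1373, 1812 and 2251 CPM in the adult ones. The P7 values all lay within the range of the adult values, which were spread more widely, from adult C to adult H. Means were 1729 ± 91.0 and 1744 ± 344 CPM (SD, n = 5 each), and the log2 fold change was -0.01 ± 0.14 (SE, edgeR adjusted p = 0.96). Of all genes tested 98.6% had a larger or equal absolute log2 fold change. The sign of this small difference turned with the scaling, to 0.063 with library size alone and 0.048 with upper quartile scaling. Of the Rasgrp2 75-mers 1.74% also occurred in other transcripts, mostly the antisense model Gm14965, whose row held 0 counts.

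Markers of other blood cells were examined beside these results. Platelet markers were strong, with 14 of 14 tested, 5 of them higher and 3 lower at P7, and their summed level ran from 64444 to 88684 CPM in P7 libraries and from 63307 to 94701 CPM in adult ones. Neutrophil markers, of which 3 of 17 were tested and 2 were higher at P7, summed to 41.9 to 71.9 CPM at P7, above the 13.7 to 36.8 CPM of the adult libraries. Nearly all of that sum was Trem1, while Cxcr2 and Ly6g were at 0 in all libraries and S100a8 and S100a9 stayed under 1 CPM. Erythroid markers, 14 of 19 tested and 5 higher at P7, summed to 1037 to 2598 CPM in P7 libraries and 595 to 1806 CPM in adult ones, mostly Hba-a1. Monocyte markers, 4 of 12 tested and 1 lower at P7, summed to 2638 to 5619 CPM and 4149 to 9713 CPM, mostly Lyz2, with Csf1r under 2 CPM. B cell markers, 3 of 9 tested and 1 higher, ran from 8.68 to 27.6 CPM and from 5.63 to 6.89 CPM, T and NK cell markers, 5 of 13 tested and 1 lower, from 8.83 to 16.6 CPM and from 13.7 to 24.2 CPM, and endothelial markers, 7 of 9 tested and 2 higher, from 1187 to 1726 CPM and from 1268 to 1737 CPM.

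Age accounted for 78.5% of the variance of the neutrophil marker level, which was nearly all Trem1, itself called higher at P7. In a fit with that level as a term, Nras had a log2 fold change of 1.66 ± 0.31 (SE) and passed (edgeR adjusted p = 0.0219). In that fit Rap1b was at -0.83 ± 0.32, Rap1a at -0.91 ± 0.41 and Rras at 0.74 ± 0.43 (SE), and none of these passed (edgeR adjusted p = 0.20, 0.27 and 0.40). Over all genes 151 were called in it, and 2272 without the term. For the erythroid level age accounted for 40.9%, and in a fit with it as a term the 4 called members passed again. Their log2 fold changes were 1.67 for Nras, 1.07 for Rras, -1.13 for Rap1b and -1.38 for Rap1a. For monocyte, lymphocyte and endothelial markers, a part in these results was not tested.

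**Figure D2:**
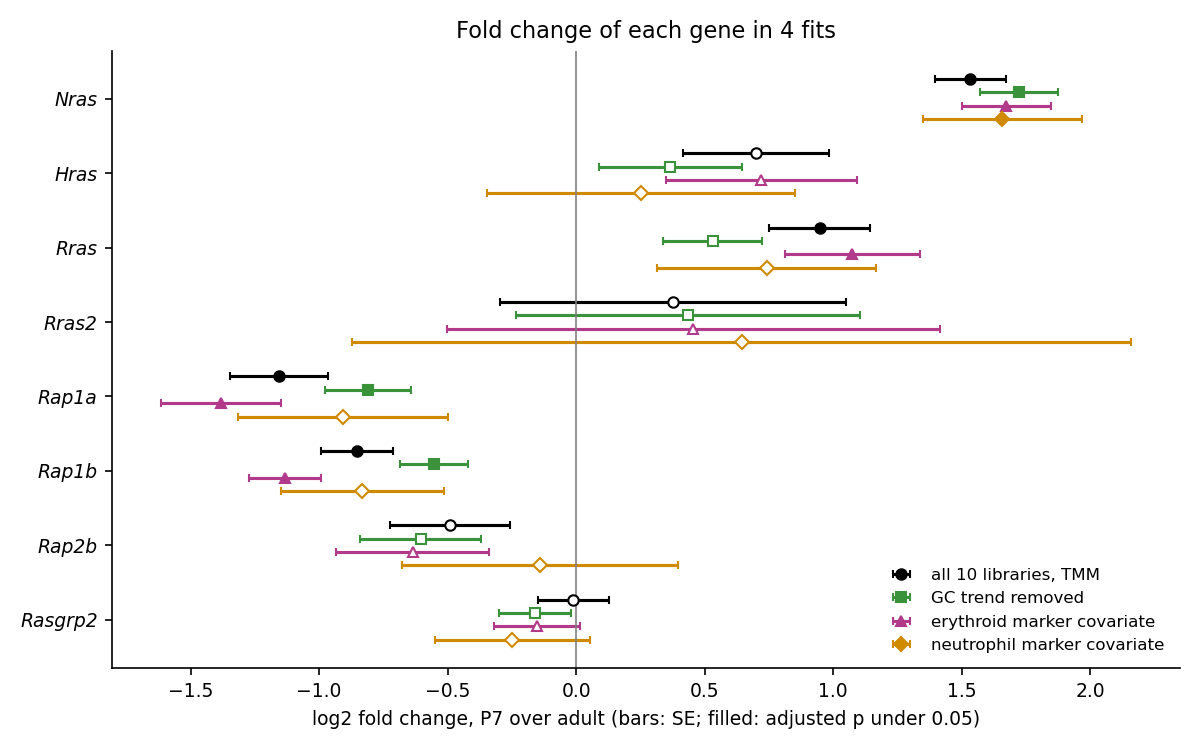
Log2 fold change, P7 over adult (x axis), with its SE for the 8 genes in 4 edgeR fits: all libraries with TMM scaling, with the GC trend removed, and with the erythroid or the neutrophil marker level as a covariate. Filled symbols passed at an adjusted p under 0.05. Nras was filled in all 4 fits, between 1.53 and 1.72, while Rras lost its call in 2 of them and Rap1a and Rap1b in the fit with the neutrophil level.

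To set levels of different genes side by side, CPM were divided by the length of the longest protein-coding transcript of each gene in GENCODE M21, from 995 nt for Rras to 6793 nt for Rap2b. The transcripts present in platelets may be shorter, and all levels in CPM per kb carry that limit. Rap2b shares 54.5% of its exon bases with B430305J03Rik, and its level and its place beside Hras are uncertain for that reason. At P7 the order was Rap1b (1183 ± 154 CPM per kb), Rasgrp2 (753 ± 39.6), Nras (118 ± 17.9), Rras (37.2 ± 5.02), Rap1a (30.9 ± 5.10), Hras (0.983 ± 0.245), Rap2b (0.533 ± 0.0889) and Rras2 (0.253 ± 0.143) (SD, n = 5). Neighbours in that order did not overlap between libraries, except Rras and Rap1a, where Rras was the higher in 4 of 5 libraries. In adults Rap1b (2138 ± 369 CPM per kb) and Rasgrp2 (759.8 ± 149.8) led as well, followed by Rap1a (68.8 ± 17.8), Nras (40.9 ± 2.53), Rras (19.3 ± 4.86), Rap2b (0.750 ± 0.152), Hras (0.606 ± 0.111) and Rras2 (0.194 ± 0.128) (SD, n = 5). Only Rap2b and Hras, as neighbours, overlapped there. Per kb, Nras lay above Rap1a in each P7 library and below it in each adult library. Before division by length, Nras was above Rap1a in each P7 library, and among adult libraries it was below Rap1a only in adult B. Adult means were then 183 CPM for Nras and 166 CPM for Rap1a. The adult order of these genes thus rests on the lengths used, 4470 nt for Nras and 2407 nt for Rap1a.

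**Figure D3:**
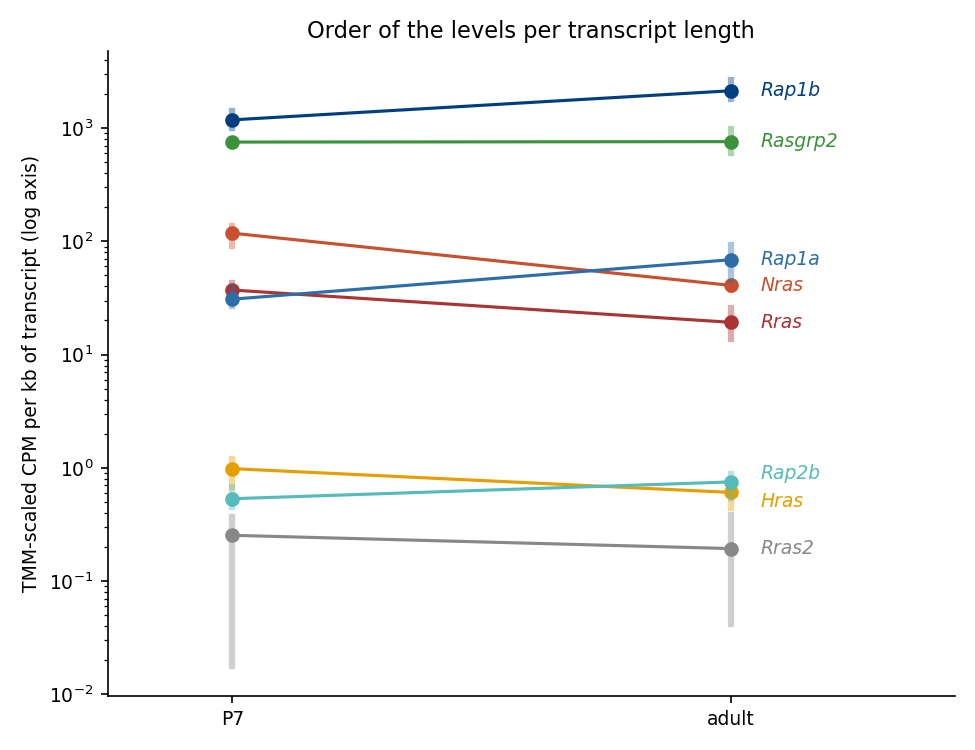
Level per transcript length of the 8 genes (TMM-scaled CPM per kb, log axis) at P7 and in adults. Points are group means, and pale bars span the lowest to the highest of 5 libraries. The lines of Nras and Rap1a cross, from 118 against 30.9 CPM per kb at P7 to 40.9 against 68.8 in adults. This crossing depends on division by length, as adult means before it were 183 CPM for Nras and 166 CPM for Rap1a.

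As a description of the balance within the set, the 7 GTPase genes were expressed as shares of their summed counts per kb. Rap1b made up 86.1 ± 2.18% of this sum in P7 libraries and 94.2 ± 0.894% in adult ones (SD, n = 5 each). The 4 Ras genes together made up 11.6 ± 2.29% and 2.77 ± 0.639%, mostly Nras with 8.75 ± 1.87% and 1.85 ± 0.385%. P7 I, with 7.67% for the 4 Ras genes, was the P7 library nearest to the adults, whose highest value was 3.43%. All 8 members together held 0.555 to 0.595% of all counts at P7 and 0.675 to 0.935% in adults.

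Ratios of counts between 2 genes of the same library do not depend on the scaling. For Rasgrp2 over Rap1b the log2 ratio was -1.01, -0.86, -0.75, -0.68 and -1.16 in the P7 libraries, and -1.52, -2.29, -1.84, -1.54 and -1.53 in the adult ones, in the order of the letters. The groups did not overlap, and Rasgrp2 counts were 1.81-fold higher relative to Rap1b at P7. Such ratios still carry the GC trend, as transcript GC content was 50.1% for Rasgrp2 and 39.9% for Rap1b. With that trend removed the log2 fold changes were -0.16 for Rasgrp2 and -0.55 for Rap1b. In the main fit they were -0.01 and -0.85, further apart. For Nras over Rap1b the log2 ratio averaged -2.61 ± 0.39 and -4.98 ± 0.32 (P7 and adult libraries, SD, n = 5 each), a 5.16-fold difference, again without overlap. Rap1b over Rap1a averaged 5.44 ± 0.12 and 5.16 ± 0.27 (SD, n = 5 each), and here the groups overlapped, with adult C, at 5.47, above 4 of the P7 libraries. These ratios restate the fold changes above within libraries and carry no test of their own.

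**Figure D4:**
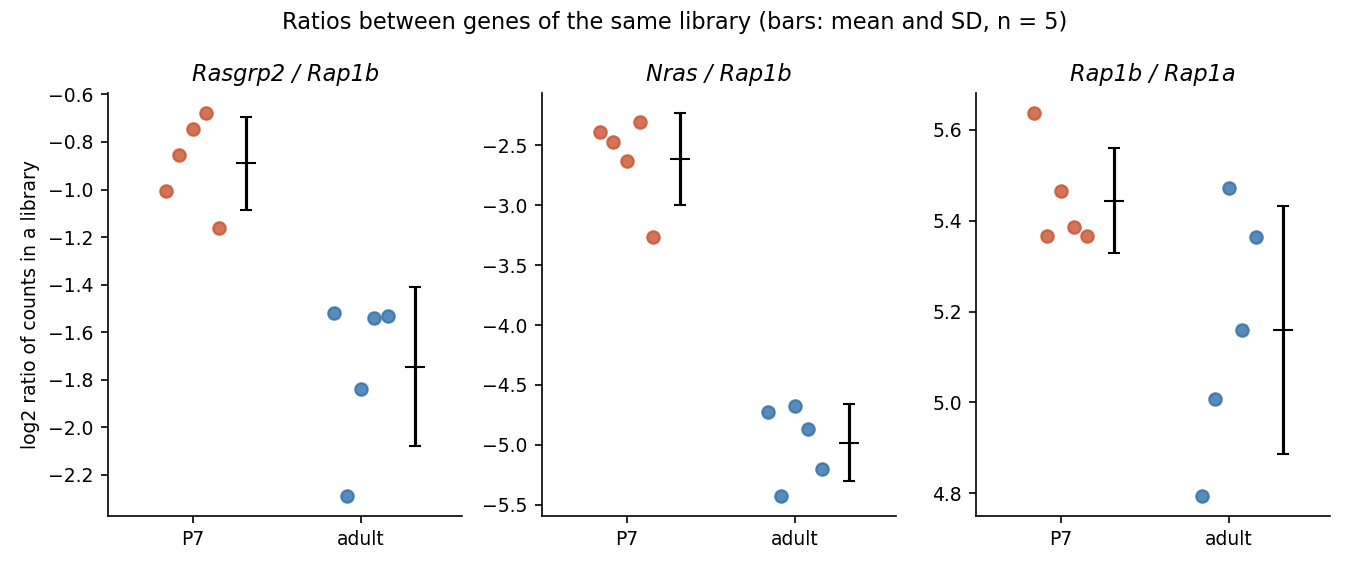
Log2 ratio of counts between 2 genes of the same library (y axes, a separate scale per ratio, not from 0), 1 point per library, with mean and SD (n = 5 each). Rasgrp2 over Rap1b and Nras over Rap1b were higher in each P7 library than in any adult library, by 0.85 and 2.37 on average, while Rap1b over Rap1a overlapped.

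The GC content of the transcripts was 42.6% for Nras and 58.1% for Rras, which rose, and 38.8% for Rap1a and 39.9% for Rap1b, which fell. Across 8028 tested genes with a value, which are not independent replicates, log2 fold change and GC content had a Spearman's rho of 0.27. Removing that trend raised the value of Nras to 1.72 ± 0.15 (SE) and brought those of Rras, Hras, Rap1a and Rap1b closer to 0. Those of Rap2b, Rasgrp2 and Rras2 moved away from 0, to -0.60, -0.16 and 0.44, and did not pass.

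The rest of the pathway was covered with 119 genes in 7 lists. Of these 86 were tested, and 10 were higher and 14 lower at P7, together 27.9%, close to the 27.7% of all genes tested. The median log2 fold change was -0.08, and 0.05 over all genes tested. With the neutrophil level as a term 0 of the 86 passed in edgeR. With the erythroid level 16 passed, and F2rl3, Gp6, Itpr2, Mink1, Ppp1cb, Ralgapa2, Rasa2, Rasal3 and Zdhhc9, described below, were among those that did not. Of these Rasa2 was at -1.07, Zdhhc9 at 0.87, Gp6 at -0.40, F2rl3 at 1.23 and Ppp1cb at -0.51, about as large as or larger than without that term. In the same fit Itpr2 at -0.98, Mink1 at -0.50, Ralgapa2 at -0.42 and Rasal3 at 0.71 were nearer to 0. Scaling by library size alone ended the calls of Gp6, Itpr2, Ralgapa2 and Rasa2, and limma-voom those of Itpr2 and Vcl. Of the other GTPases of the Ras subfamily 0 were higher and 2 lower of 9 tested (median 0.13). Mras, the gene of M-Ras, which acts with SHOC2 on RAF kinases, was at 35.1 ± 11.9 CPM in P7 libraries against 73.1 ± 21.2 CPM in adult ones (SD, n = 5 each), with a log2 fold change of -1.06 ± 0.25 (SE) and some overlap. Rit1 was at 175 ± 19.4 and 256 ± 21.8 CPM (SD, n = 5 each; log2 fold change -0.55 ± 0.13, SE), with no overlap. Outside the rule for naming genes, and chosen after its values were seen, Rap2a was at 328 ± 21.4 CPM in P7 libraries against 290.4 ± 44.9 CPM in adult ones (log2 fold change 0.18 ± 0.13, SE, edgeR adjusted p = 0.36). On the same scale its close relative Rap2b was at 3.62 ± 0.604 and 5.10 ± 1.03 CPM (SD, n = 5 each), which is not corrected for length. Reads on the exon bases that Rap2b shares with other genes may also be missing from its level.

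Exchange factors other than Rasgrp2 were 1 higher and 1 lower of 11 tested (median -0.03). Rasgrf2, an exchange factor of Ras and Rac proteins, rose by 1.09 ± 0.29, from 13.2 ± 4.33 to 28.0 ± 9.83 CPM, and Rapgef6, an exchange factor of RAP1, fell by 0.81 on the log2 scale, from 14.0 ± 2.23 to 7.97 ± 0.568 CPM. The relatives Rasgrp1 and Rasgrp4 stayed under 1 CPM in each library and were not tested, while Rasgrp3, named after its values were seen, was at 150.5 ± 71.5 and 231 ± 60.6 CPM (SD, n = 5 each; edgeR adjusted p = 0.19). Among GTPase-activating proteins and inhibitors 2 were higher and 2 lower of 11 (median 0.11). Sipa1, a GTPase-activating protein of RAP1, had a log2 fold change of 1.17 with means of 2.996 and 1.33 CPM, and Rasal3 one of 0.80. Ralgapa2 and Rasa2 had -0.76 and -0.78. Each of these 4 calls was lost on leaving out single libraries. The call of Sipa1 was lost on leaving out any 1 of P7 A, C or E or adult A, B or H (log2 fold changes 0.84 to 1.201), and that of Rasal3 on leaving out any 1 of P7 A, C or E or adult A, B or G (0.64 to 0.80). For Ralgapa2 this held for P7 B, E and I and adult A and C (-0.80 to -0.63), and for Rasa2 it held for P7 A, C and E and adult A, B, C and H (-0.80 to -0.64). With the GC trend removed Sipa1, Rasal3 and Rasa2 did not pass either, at 0.69, 0.40 and -0.50. Rasa3, named after its values were seen as the most abundant gene of this list and the known brake on RAP1 in platelets, was at 881 ± 104 and 1043 ± 115 CPM (SD, n = 5 each; log2 fold change -0.24 ± 0.13, SE, edgeR adjusted p = 0.17).

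In the RAF, MEK and ERK cascade 1 gene was higher and 3 were lower of 12 (median -0.34). Map2k2, which encodes MEK2, rose by 0.69 ± 0.14 (SE), with means of 123 ± 14.3 and 76.3 ± 7.45 CPM (SD, n = 5 each). Shoc2, the scaffold of the phosphatase complex that primes RAF, fell by 0.88 on the log2 scale, and its partner in that complex Ppp1cb by 0.50. Ywhaz, a 14-3-3 gene, fell by 0.44, from 2037 ± 212 to 1496 ± 90.8 CPM. With the GC trend removed Map2k2 and Ppp1cb did not pass, at 0.22 and -0.24. None of the 4 passed with the neutrophil level as a covariate. In that fit Map2k2 was at 0.89 ± 0.32, Shoc2 at -0.81 ± 0.32, Ywhaz at -0.17 ± 0.24 and Ppp1cb at 0.0063 ± 0.27 (SE). Mapk3, which encodes the kinase ERK1, was named after its values were seen, with a log2 fold change of 0.04 ± 0.18 (SE, edgeR adjusted p = 0.90).

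Rap effectors and genes of integrin activation were 3 higher and 2 lower of 13 (median 0.22). Itga2b and Itgb3, which encode the chains of the fibrinogen receptor, rose by 0.55 ± 0.15 and 0.90 ± 0.23 (SE), but the groups overlapped for both. With the GC trend removed Itga2b was at 0.12 and did not pass (edgeR adjusted p = 0.58). Vcl, which encodes vinculin, had a log2 fold change of 0.97 ± 0.30 (SE) that no longer passed on leaving out P7 A, B, C or E or adult A, B, G or H (0.79 to 0.98). Tnik and Mink1, kinases that bind RAP2, fell by 0.67 and 0.65 on the log2 scale, both with no overlap between the groups. Neither passed with the neutrophil level as a covariate, at -0.21 and -0.63. The talin gene Tln1 and the kindlin-3 gene Fermt3, named after their values were seen, had log2 fold changes of 0.37 ± 0.21 and 0.22 ± 0.14 (SE, edgeR adjusted p = 0.22 and 0.27). Apbb1ip, whose product RIAM can link RAP1 to talin, was under 1 CPM in each library and was not tested.

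Of 14 genes of prenylation, processing and palmitoylation, by which Ras and Rap proteins reach membranes, 1 was higher and 1 lower (median -0.18). Fntb, the beta subunit of farnesyltransferase, fell 1.34 on the log2 scale, from 32.8 ± 7.73 to 12.97 ± 2.30 CPM (SD, n = 5 each), with no overlap. Zdhhc9, a palmitoyltransferase of Ras proteins, had a log2 fold change of 0.66 ± 0.23 (SE), which no longer passed on leaving out P7 A, B, C or I or adult A, B or H (0.52 to 0.67). With the GC trend removed it was at 0.59 and did not pass. Pggt1b, a subunit of the enzyme that attaches the RAP1 lipid anchor, was at 17.0 ± 3.46 and 14.1 ± 2.35 CPM (SD, n = 5 each; edgeR adjusted p = 0.34) and was named after its values were seen.

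The last list held receptor and signalling genes set down as upstream of Rasgrp2, though not all need act through it. Of 16 tested, 2 were higher and 3 lower (median -0.03). P2ry12, an ADP receptor gene, fell by 1.34 ± 0.19 (SE), Gp6, of the collagen receptor, had -0.37 ± 0.11, and Itpr2, an IP3 receptor gene, had -1.32 ± 0.43. Gnai2 rose by 0.54 ± 0.12 and F2rl3, a thrombin receptor gene, by 1.26 ± 0.34 (SE). Gp6 no longer passed on leaving out P7 C or E or adult A (-0.37 to -0.35). The same was so for Itpr2 on leaving out any of the 5 P7 libraries or adult B, C or G (-1.37 to -0.84). With the GC trend removed Gnai2, Gp6 and F2rl3 did not pass, at 0.17, -0.20 and 0.86.

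**Figure D5:**
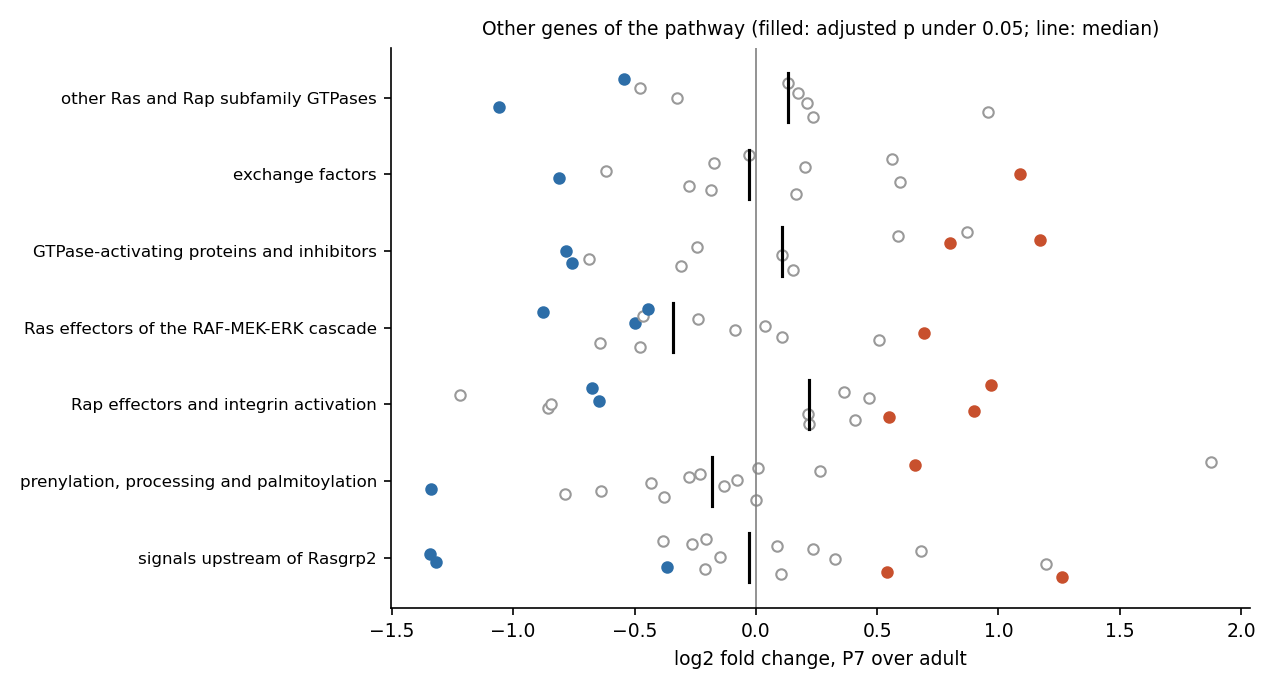
Log2 fold change, P7 over adult (x axis), of the 86 tested genes in 7 pathway lists, 1 point per gene, filled where the adjusted p was under 0.05 (red higher, blue lower), with a line at each list's median. Each list held genes on both sides of 0, and list medians lay between -0.34 and 0.22.

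Genes with a profile like that of Rap1b or Rasgrp2 were sought among 1946 named genes whose mean reached 20 CPM, by the root mean square difference of log2 CPM over the 10 libraries after each profile was centred on its own mean. For Rap1b the nearest were Nol7, Tbl1xr1, Shoc2, Ube2b and Cdc42, at 0.12 to 0.14 log2 units per library, where the median gene differed by 0.54. Their log2 fold changes were -0.95, -0.88, -0.88, -0.96 and -0.84, all past the test, as the choice by likeness to Rap1b makes likely. With the neutrophil level as a covariate none of the 5 passed, at -0.95 ± 0.39, -0.70 ± 0.37, -0.81 ± 0.32, -0.99 ± 0.32 and -0.62 ± 0.29 (SE), in the same order. For Rasgrp2 the nearest were Map2k3, Derl1, Angel2, Sdf2 and Pard3b, at 0.09 to 0.13 log2 units, where the median gene differed by 0.40. Likeness over 10 libraries that differ in age says nothing of shared function or control.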

How the data were processed

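RNA was taken from mouse platelets with Trizol, amplified by low-input SMARTer chemistry and sequenced as single reads of 75 nt, per the labels' protocols. The authors deposited raw counts of reads per gene symbol, 1 file per library. The submitters' processing notes list Salmon 1.5.2, featureCounts, Subread 2.0.1, STAR 2.7.9a and fastp 0.23.1 without a role. The strand setting and genome build are not stated in them or elsewhere in the sources used here. Libraries held 19431863 to 25029931 counts, so 3 counts, the limit that a count of 0 allows, stood for 0.120 to 0.172 TMM-scaled CPM. The labels name no molecular identifiers, so this limit covers counting error only. Replicate libraries differed by 37.1 to 194 times sampling noise (chi-square per degree of freedom). Sampling noise here is that of counting alone, so this cannot show whether any libraries came from the same RNA. Each library was treated as separate.

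Genes were filtered with filterByExpr (minimum count 10, minimum total 15), scaled by TMM and tested in edgeR 4.0.16 (limma 3.58.1, R 4.3.3) with a robust quasi-likelihood fit and age as the only term. The test was tried on simulated counts with known changes. GC content, lengths and 75-mers came from GENCODE M21 (GRCm38), promoters from RefSeq. Named genes were all members, up to 3 called genes per direction and list, and the 5 nearest profiles to Rap1b and Rasgrp2. Members and lists were chosen with earlier results of these data known. Alternatives were other scalings, DESeq2 1.42.0, limma-voom, other filters and thresholds, each library left out, the letters A to C as a block, marker covariates and GC removal. Results for a few other genes are not reported here.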

Additional observations from a re-analysis of the deposited data

Results flagged for a closer look

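In 82 groups of 5 libraries (41 named genes at 2 ages), 1 library stood apart from the other 4 in 5 groups by Dixon's criterion, and chance alone flags about 1 in 20. No group of a Ras, Rap or Rasgrp2 gene was among them. Itga2b in adult A was at 22330.1 CPM, against 16742 to 18172 CPM in the other adult libraries. Sipa1 in P7 E was at 5.35 CPM, against 1.91 to 2.89 CPM. Tnik was at 78.9 CPM in P7 C, against 98.7 to 106 CPM, and at 206 CPM in adult B, against 130.5 to 152 CPM. Ywhaz in P7 C was at 1338 CPM, against 1501 to 1556 CPM.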

How the results depend on the processing

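Nras kept its direction and call in all 23 alternatives, with log2 fold changes of 1.46 to 1.72. Rap1a (-1.38 to -0.81) and Rap1b (-1.13 to -0.55) lost theirs only with the neutrophil covariate, and Rras (0.53 to 1.15) with that and with the GC trend removed. Hras, Rap2b and Rras2 were not called in any alternative in which they were tested (all but the filter at a mean of 10 CPM). Rasgrp2 was not called in any and turned to 0.063 with library size alone, 0.048 with upper quartile scaling, 0.011 in limma-voom and 0.044 among genes whose mean reached 10 CPM. Leaving out each library put it between -0.096 and 0.087, the latter without adult H. Calls among the 8 members went from 4 to 1 with the neutrophil covariate, which was nearly all Trem1, and calls among 86 pathway genes from 24 to 0. In that fit Ppp1cb turned to 0.0063, while others were larger than without the term, such as P2ry12 at -1.71 ± 0.42, Itgb3 at 1.47 ± 0.50 and Map2k2 at 0.89 ± 0.32 (SE), with wider errors. Calls over all genes went from 2272 to 151 with the neutrophil covariate, 1476 with the erythroid covariate and 1228 at an adjusted p under 0.01, where 12 pathway genes were called. Among genes whose mean reached 10 CPM 1215 of 2803 tested were called, a larger share than the 2272 of 8198 in the main fit. Leaving out each library gave 1843 to 2394 calls over all genes, 17 to 22 in the pathway and 4 among the members. Libraries of the letters A to C share only a letter: their deviations correlated at -0.08, 0.03 and -0.02 within letters. With the letters as a replicate block, 1416 genes, 14 pathway genes and the same 4 member genes were called, against 1886, 19 and 4 in these 6 libraries without the block. Rasgrp2 was at 0.13 in both, and Rras2 at -0.083 and -0.0051. Among the 28 other named genes whose fold change is given, 136 of 640 alternative values lost the call and 1 turned in direction. The profile differences of the 5 genes nearest to Rasgrp2, for which no fold change is given, ran from 0.056 to 0.14 log2 units over 65 alternative values. With exon unions as length, an alternative chosen after seeing the data, the Rap1b share of the GTPase sum differed (P7 minus adult) by -7.31 percentage points, against -8.05 with transcript lengths. The cause of these changes was not tested. Depth limits Rras2 most, with 1 to 21 counts per library.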
